A study of Mus musculus with 2 samples.

Results

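Granulocyte-like cells that held few transcripts of proliferation genes were examined in bone marrow (BM) sorted from mice with severe aplastic anemia (SAA) and from their radiation controls (RC). A cell was chosen by its own counts of unique molecular identifiers (UMIs, each standing for 1 captured transcript). The summed UMIs of Camp, Ngp, Ltf, Fcnb and Cebpe (C, genes of the later granules and their regulator) had to reach 5, to be at least as high as the sum of Elane, Mpo, Prtn3 and Ctsg (E, genes of the primary granules) and to exceed the sum of Csf1r, Ccr2, F13a1, Ms4a6c and Ly86 (M, monocyte genes). The sum of Mki67, Top2a, Birc5, Ccna2, Stmn1 and Pclaf (K, genes of proliferating cells) had to stay under 5. This rule chose 92 cells of the 649 granulocyte-like cells and of the 1391 cells retained in all, 36 from RC and 56 from SAA. The other 557 granulocyte-like cells, with K of 5 or more, are called cycling below and are the comparison group. Because the members were chosen on measured values, the genes of C, E, M and K are given as a description only, and the division into low-K and cycling cells supports nothing by itself.

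Both libraries came from mice of the genotype C57BL/6;Balb/c, the F1 cross of these strains. RC mice received 300 rads of radiation, and SAA mice received 300 rads and an infusion of 65000000 C57BL/6 (B6) splenocytes, so irradiation was common to both groups and the donor cells were not. Each library pooled the marrow of 3 mice, and cells were sorted as 7-AAD-, CD11b+, Ly6C+ and Ly6G- before 5′ single-cell RNA sequencing, so the gate was set to remove cells with the Ly6G protein of mature neutrophils. With 1 library per group there was no replicate and no test. All intervals are 95% exact intervals that cover counting error only, and a difference between RC and SAA is a difference between these libraries. The RC library held 4066589 UMIs in 798 barcodes and the SAA library 5592265 UMIs in 825 barcodes, of which 662 and 729 had at least 1000 genes and at most 25% mitochondrial UMIs. One barcode sequence occurred in both libraries and in no member. Donor and host cells could not be told apart by these counts.

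Neutrophils arise in the marrow in an ordered program. Promyelocytes fill primary (azurophil) granules with elastase, myeloperoxidase and proteinase 3. Myelocytes and metamyelocytes fill specific and gelatinase granules with lactoferrin, cathelicidin and lipocalin. The cells leave the cell cycle during these later stages, and go on to segment their nuclei and gain receptors for emigration such as CXCR2. C/EBPε is the transcription factor best known for switching on the specific granule genes. Interferon-gamma, which activated T cells release in immune-mediated marrow failure, and the type I interferons raise antigen presentation genes, guanylate-binding proteins and other antiviral genes in most cell types, granulocytes included.

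The promoter windows of 5 genes on which the results turn are shown first, since specific granule genes and interferon-inducible genes formed the main groups described here. Each runs 5′ to 3′ on the strand of its gene, from 250 bases before to 50 bases after the annotated start, from RefSeq on build GRCm38.p6. Capitals mark the searched motif on either strand. In Ltf (lactoferrin, chr9:111019042-111019341, plus strand) and Ngp (neutrophilic granule protein, chr9:110419558-110419857, plus strand) the motif is a C/EBP-like TTGCNNAA. In Gbp2 (a guanylate-binding protein, chr3:142620413-142620712, plus strand), Isg15 (a ubiquitin-like antiviral protein, chr4:156200769-156201068, minus strand) and B2m (the light chain of MHC class I, chr2:122147437-122147736, plus strand) it is the interferon-stimulated response element, GAAA and GAAA with any 2 bases between them.
Ltf: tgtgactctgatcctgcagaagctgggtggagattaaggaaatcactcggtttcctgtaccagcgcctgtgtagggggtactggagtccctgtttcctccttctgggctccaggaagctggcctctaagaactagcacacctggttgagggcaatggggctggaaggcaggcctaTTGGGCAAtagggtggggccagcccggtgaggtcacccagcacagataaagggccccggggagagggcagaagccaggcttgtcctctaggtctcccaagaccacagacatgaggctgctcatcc
Ngp: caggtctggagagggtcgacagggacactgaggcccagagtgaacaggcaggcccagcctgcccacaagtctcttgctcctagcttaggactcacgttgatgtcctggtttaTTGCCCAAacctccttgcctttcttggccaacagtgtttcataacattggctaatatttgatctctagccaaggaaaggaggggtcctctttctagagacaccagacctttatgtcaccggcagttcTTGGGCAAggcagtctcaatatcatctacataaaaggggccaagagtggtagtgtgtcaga
Gbp2: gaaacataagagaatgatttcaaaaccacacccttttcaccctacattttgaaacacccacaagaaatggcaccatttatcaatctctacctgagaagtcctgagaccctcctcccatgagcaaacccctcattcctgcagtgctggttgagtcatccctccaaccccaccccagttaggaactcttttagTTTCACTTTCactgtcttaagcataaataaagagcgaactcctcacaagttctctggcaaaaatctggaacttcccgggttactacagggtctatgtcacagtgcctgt
Isg15: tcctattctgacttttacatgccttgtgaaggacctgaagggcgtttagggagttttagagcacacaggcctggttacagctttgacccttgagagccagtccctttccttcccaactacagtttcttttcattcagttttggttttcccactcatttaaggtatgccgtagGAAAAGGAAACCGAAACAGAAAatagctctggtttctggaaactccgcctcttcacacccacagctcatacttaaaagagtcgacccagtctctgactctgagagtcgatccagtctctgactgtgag
B2m: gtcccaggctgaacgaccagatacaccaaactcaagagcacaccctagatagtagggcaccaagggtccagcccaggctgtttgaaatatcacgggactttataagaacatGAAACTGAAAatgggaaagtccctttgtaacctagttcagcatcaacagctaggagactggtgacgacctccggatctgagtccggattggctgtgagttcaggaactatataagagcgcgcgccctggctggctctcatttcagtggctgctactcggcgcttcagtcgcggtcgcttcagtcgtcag
The single Ltf match began 75 bases before the start, the Ngp matches 138 and 11 bases before it, the Gbp2 match 59 and the B2m match 139 bases before it. The capitals in Isg15 hold 3 overlapping matches that began 78, 72 and 66 bases before the start. Among 27025 genes with a promoter window of this length, 12.2% held the C/EBP-like motif and 3.99% the response element. These are letter matches, and binding was not measured.

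Low-K cells made up a like share of granulocyte-like cells in both libraries, 13.5% in RC (interval 9.63 to 18.2) and 14.7% in SAA (11.3 to 18.6). They were small in RNA content. Their median was 4480 UMIs and 1241 genes per cell in RC and 4241 UMIs and 1263.5 genes in SAA, against 6888 UMIs and 1898 genes in cycling cells of RC and 7012 UMIs and 2033 genes in those of SAA. A shallow cell reaches a K of 5 less easily, so the rule drew on depth as well as on the cell cycle. At the threshold, 5 RC and 9 SAA cells had a K of 4, with median depths of 4412 and 4271 UMIs, and 7 RC and 12 SAA cells had a K of 5, with median depths of 6422 and 4210 UMIs. The threshold therefore cut through a continuous range, and 14 RC and 19 SAA members had a K of 0. The members stood far above the minimum of C, with a median C of 491.5 in RC and 427.5 in SAA and a lowest C of 182 and 145, and had an M of 0 in 36 of 36 and 55 of 56 cells.

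The label of postmitotic cells was only partly borne out. For 43 S phase genes outside the rule, which serve DNA replication, the summed level in RC was 944 counts per 1000000 UMIs (CPM; interval 711 to 1228) in members with a K of 0 and 3871 (3509 to 4261) in members with a K of 1 to 4. The latter was close to the 4511 CPM of cycling cells with a K of 5 to 9 and the 3392 CPM of those with 10 or more. In SAA the same sums were 207 CPM (118 to 337) and 2082 CPM (1866 to 2317), below the 3552 and 3991 CPM of the cycling strata. Per RC member the median was 1.5 UMIs of these genes at a K of 0 and 18.5 UMIs at a K of 1 to 4. Members with K of 1 to 4 thus included cells with replication transcripts, more so in RC. Over all members the S phase list summed to 472 UMIs in RC and 353 in SAA, an SAA to RC ratio of 0.519 (0.451 to 0.597). Genes of G2 and M phase outside the rule ran the other way, with 600 and 1162 UMIs and a summed SAA to RC ratio of 1.34 (1.22 to 1.49). The cells are therefore called low-K granulocyte-like cells here and not postmitotic.

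**Figure D1:**
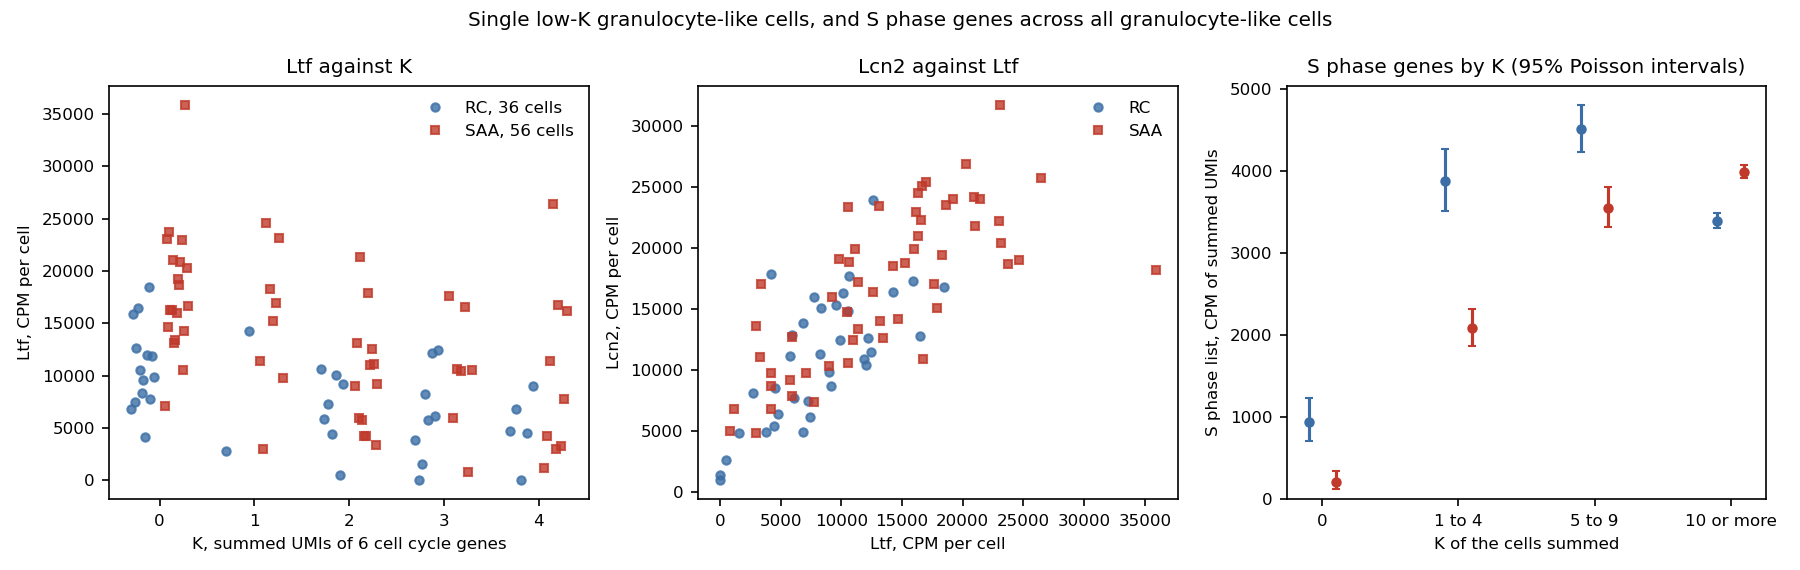
The first and second panels show each low-K member of RC (36 cells) and SAA (56 cells) as 1 point, with Ltf in CPM per cell against K in UMIs and Lcn2 against Ltf in CPM per cell, and the third shows the S phase list in CPM of summed UMIs by stratum of K over low-K and cycling cells, with 95% Poisson intervals. Ltf and Lcn2 rank together, and the S phase sum is lowest at a K of 0 (944 CPM in RC, 207 in SAA).

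Of the 5 markers given for these cells, Ltf was the only one with UMIs in nearly every member, and it was part of the rule. Lactoferrin, an iron-binding protein of specific granules, had a lowest, median and highest count of 0, 36 and 66 UMIs per RC member and of 2, 53 and 136 UMIs per SAA member. The summed levels were 7657 CPM (RC) and 13307 CPM (SAA), 1.74 times as high in SAA (1.63 to 1.86). It was 1.63 times the level of cycling cells in RC and 2.25 times in SAA. The libraries overlapped widely in single cells, with the SAA members reaching higher.

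Ly6g, which encodes the Ly6G surface antigen, was detected in 47.2% of RC and 58.9% of SAA members, although the sort gate excluded cells with the protein. After each cell was thinned to 3000 UMIs the shares were 34.3% and 58.3%, against 36.8% and 29.1% of thinned cycling cells. Among monocyte-like cells (M highest), taken as a guide to free RNA, it was found in 0 of 336 cells of RC and in 2.21% of those of SAA. The 0 allows a share of up to 0.893% (3 of 336 cells), and free RNA itself was not measured. Its levels were 295 and 318 CPM, a ratio of 1.08 (0.742 to 1.58), so no difference between the libraries was detectable at this depth. Ly6g transcripts were thus found in a larger share of members than of monocyte-like cells in both.

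Cxcr2, the chemokine receptor that draws neutrophils out of the marrow, was rare in RC. It was present in 13.9% of RC members with at most 1 UMI per cell, and in 50% of SAA members with up to 7. Levels were 30.1 and 238 CPM, 7.92 times as high in SAA (3.20 to 25.3), and cycling cells showed a ratio of 4.37. Thinned shares were 14.3% and 41.7%, and monocyte-like cells stood at 0.595% and 2.58%.

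Slfn4, a schlafen gene of myeloid cells that interferon induces, behaved likewise. Its lowest, median and highest counts were 0, 0 and 2 UMIs in RC members and 0, 2 and 13 UMIs in SAA members, and 22.2% and 69.6% of members had a UMI. The levels were 60.2 and 661 CPM, a ratio of 10.97 (5.81 to 23.3), against 6.00 in cycling cells. In SAA it was 3.33 times as high in low-K as in cycling cells. Schlafen genes are close copies of each other, so their counts are uncertain.

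Padi4, which encodes the enzyme that citrullinates histones in neutrophils, was thinly detected, with 11 UMIs in RC and 16 in SAA. Its shares of 27.8% and 19.6% compare with 5.95% and 2.95% of monocyte-like cells, and its level differed little, 66.3 and 66.9 CPM. At least 3 of the 5 markers were found together in 27.8% of RC and 67.9% of SAA members, and in 20% and 64.6% after thinning. For cycling cells the thinned shares were 14.0% and 26.3%.

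The excess of these markers over cycling cells was also examined at like depth. When only cells of 4258 to 5697.5 UMIs were compared, which left 18 members and 45 cycling cells in RC and 21 and 59 in SAA, the log2 ratio of members to cycling cells was -0.39 in RC and 0.46 in SAA for Ltf. For Ly6g it was -0.84 and 0.63, and for Slfn4 0.11 and 1.48. In RC, low-K cells in this window thus did not carry more Ltf or Ly6g than cycling ones, whereas in SAA they did. The window held 6 of the 14 RC and 4 of the 19 SAA members with a K of 0, so depth and the makeup by K changed together and cannot be told apart. Whether the libraries differ in this was not tested.

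**Figure D2:**
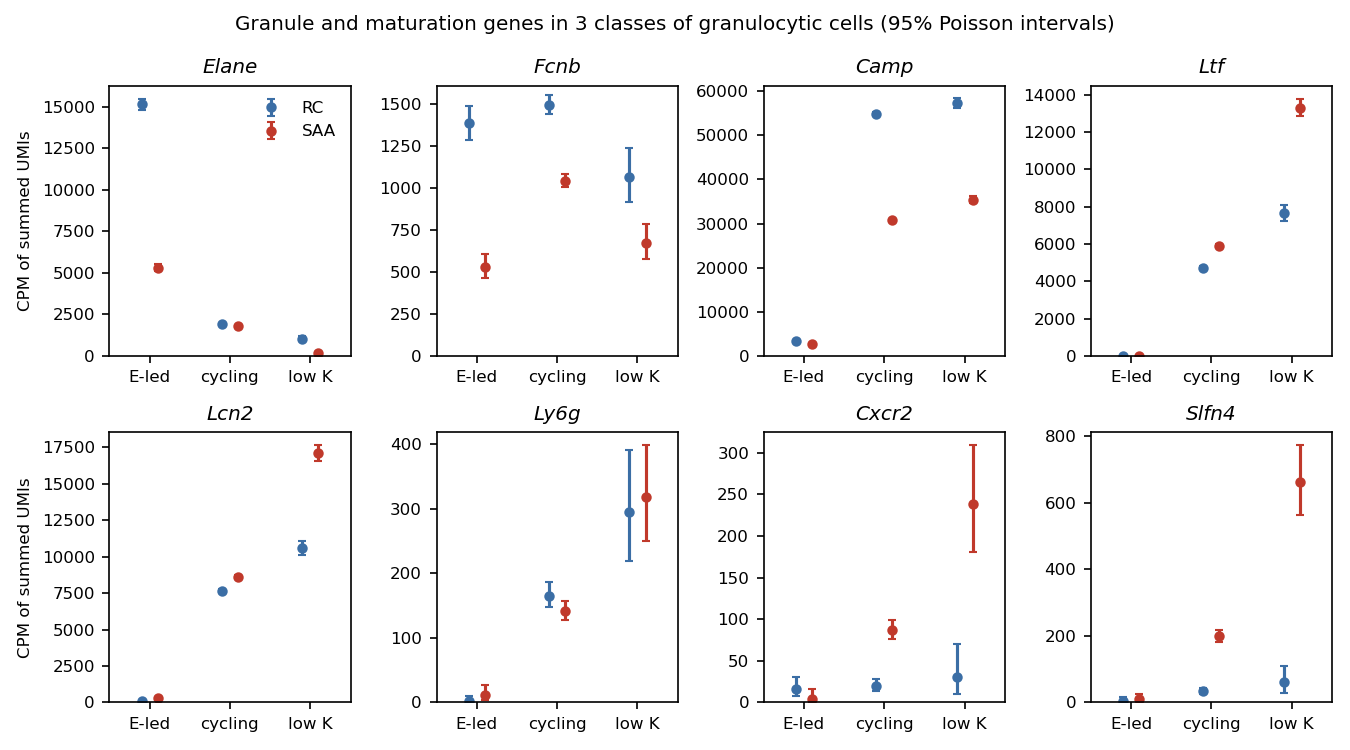
Levels of 8 granule and maturation genes in CPM of summed UMIs, on linear axes that start at 0, in promyelocyte-like cells (E-led, E above C) and in cycling and low-K granulocyte-like cells of RC and SAA, with 95% Poisson intervals. Elane is lower along the 3 classes, whereas Ltf is higher (7657 CPM and 13307 CPM in low-K cells of RC and SAA).

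Specific granule genes made up much of the RNA of these cells, and their balance differed between RC and SAA. Camp, the cathelicidin precursor, had a lowest, median and highest count of 133, 268 and 405 UMIs in RC members and 10, 146.5 and 333 UMIs in SAA members. Its levels were 57204 CPM (RC) and 35407 CPM (SAA), a ratio of 0.619 (0.601 to 0.637), and the ratio in cycling cells was 0.561. Lcn2, a lipocalin that binds bacterial siderophores, went the other way, with 5, 48 and 104 UMIs in RC members and 12, 74 and 180 UMIs in SAA members. Its level was 10590 and 17105 CPM, a ratio of 1.62 (1.53 to 1.71), against 1.13 in cycling cells. Camp was thus the lower and Ltf and Lcn2 the higher transcripts in SAA, with overlapping cells for each.

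Ngp, a granule protein related to the cathelicidins, was counted at 40319 and 50730 CPM, and Cd177, a surface partner of proteinase 3, at 916 and 1711 CPM. Fcnb, the pattern-recognition protein ficolin B of earlier granulocytes, was lower in SAA (1066 and 674 CPM) and lower in members than in cycling cells of both libraries (ratios 0.715 and 0.647). Cebpe, the regulator itself, did not differ detectably (482 and 611 CPM, ratio 1.27, interval 0.958 to 1.69). Of the 16 measured genes of the specific and gelatinase granule list, 3 were at least 2-fold higher in SAA and 0 lower, and the median log2 ratio was 0.36 against 0.18 over all 2175 genes with at least 20 UMIs in members of both libraries together. The count was near the background, since 13.7% of those 2175 genes were at least 2-fold higher in SAA and 5.29% at least 2-fold lower. The 3 higher ones were Mmp9, Retnlg and Olfm4, each with few UMIs in RC. In this list 6 of the 14 genes with a promoter window held the C/EBP-like motif printed above, among them Ltf, Ngp, Lcn2 and Fcnb.

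The cells of 1 library shared their granule genes unevenly. Across members, Ltf and Lcn2 counts ranked together (Spearman's rho 0.69 in RC over 36 cells and 0.75 in SAA over 56 cells), whereas Ltf and Camp did not (0.03 and -0.01). Ltf ranked against K (-0.48 and -0.48) and against Elane (-0.62 and -0.62). These values share the depth of each cell and are given without a test.

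Along K, members with a K of 0 held more of the later genes. Ltf was at 10586 CPM there and at 6072 CPM in members with a K of 1 to 4 in RC, and at 17465 and 11324 CPM in SAA. Ly6g was at 686 and 83.6 CPM in RC and at 453 and 253 CPM in SAA. Retnlg, a resistin-like protein of mature neutrophils, was at 172 and 18.6 CPM in RC and at 466 and 55.6 CPM in SAA. Elane, neutrophil elastase, ran the other way, with 17.2 and 1588 CPM in RC and 0 and 247 CPM in SAA. Camp differed little along K in RC, with 60323 and 55516 CPM. Members with a K of 0 thus carried most of the Ly6g and Retnlg in RC, and the members with a K of 1 to 4 nearly all of the Elane.

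Some transcripts of mature neutrophils were sparse. Il1b, an inflammatory cytokine abundant in blood neutrophils, had 0 UMIs in both libraries. Mmp8, the neutrophil collagenase, had 3 UMIs in RC and 15 in SAA, Csf3r, the G-CSF receptor, 12 and 35, and Retnlg 12 and 45. A lone cell per library held most UMIs of the stefin genes (cysteine protease inhibitors of mature neutrophils). Both cells were singled out after their values had been seen. The RC cell carried 227 of the 229 stefin UMIs among RC members, 6.12% of its 3711 UMIs, with a K of 0. It held 0 of the 3 Mmp8 and 3 of the 12 Retnlg UMIs. The SAA cell carried 270 of 356 stefin UMIs, with 48 of the 72 Mmp9 (gelatinase B), 108 of the 311 S100a6, 11 of the 15 Mmp8 and 14 of the 45 Retnlg UMIs. Stefin genes are near-identical copies and their split between symbols is uncertain. Of the 18 measured genes of the mature neutrophil list, 10 were at least 2-fold higher and 1 at least 2-fold lower in SAA, against 13.7% and 5.29% of all genes at this minimum, and their median log2 ratio was 1.12. Of the 18 genes, 2 had at most 3 UMIs in RC and were counted through SAA alone. The whole list summed to 3343 CPM in RC members and 6158 CPM in those of SAA, and to 1844 and 2957 CPM in cycling cells. However, 1 RC member with a K of 0 held 244 of the 555 UMIs of the list in RC. RC members with a K of 1 to 4 stood at 1569 CPM, below the 2155 and 1799 CPM of the cycling strata. In SAA, 1 member held 371 of the 1472 UMIs. SAA members with a K of 1 to 4 stood at 4547 CPM, above the 3189 and 2933 CPM of the cycling strata.

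Several of those 10 did not rest on a single cell. Fpr2, a formyl peptide receptor, had 23 UMIs in RC and 193 in SAA, a ratio of 5.83, and cycling cells showed 4.35. Mxd1, a MYC antagonist of terminal myeloid differentiation, had 17 and 89 UMIs (ratio 3.64, cycling cells 2.62). Gda, guanine deaminase, had a ratio of 2.70 and Tnfaip2 one of 6.57. Ly6g and Padi4 of the same list had ratios of 1.08 and 1.01.

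The rule limited primary granule genes in the members only in that C had to reach E. The median E was 0.5 in both libraries, far under the median C of 491.5 in RC and 427.5 in SAA. Elane stood apart between the libraries. Elane had 172 UMIs in RC members and 40 in SAA members, 1036 and 167 CPM, a ratio of 0.161 (0.112 to 0.229), whereas cycling cells showed 0.923. However, 4 RC members with an E of 33 to 130 and a K of 2 to 4, which together held 11 Ltf UMIs, carried most of it. Without them, Elane in RC was at 201 CPM, close to the 167 CPM of SAA. Prtn3, proteinase 3, had 92 and 110 UMIs (ratio 0.830) and Mpo, myeloperoxidase, 33 and 11, of which 25 in RC lay in 1 cell. Ctsg, cathepsin G, had 8 and 0 UMIs. The lower Elane of SAA thus rested largely on these 4 RC cells. They were picked for their high E, and the highest E of an SAA member was 18. Leaving them out could therefore only lower Elane in RC.

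The calcium-binding proteins S100a8 and S100a9, which form calprotectin in the cytosol, were the most abundant transcripts. S100a8 was counted at 173865 CPM (RC) and 130468 CPM (SAA, ratio 0.750), and S100a9 at 131221 and 95002 CPM (ratio 0.724). Cycling cells showed the same direction, with 0.791 and 0.740. S100a6 (calcyclin), outside the rule, was at 4.87 times the level of cycling cells in RC and 7.54 times in SAA, with 78 UMIs in 17 RC members and 311 UMIs in 26 SAA members. Within the common depth window its log2 ratio to cycling cells was 0.46 in RC and 3.31 in SAA. The genes of the NADPH oxidase, which makes the respiratory burst, were near even between the libraries, with 1 of 6 at least 2-fold higher in SAA (background 13.7%), and their median log2 ratio was 0.42. Cybb, its membrane subunit, had levels of 2482 and 3275 CPM. Anxa1, an annexin released by neutrophils that restrains inflammation, was 1.53 times as high in SAA and exceeded the level in cycling cells in both libraries (1.43 and 1.93).

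Against cycling cells, 31 of 4558 genes with at least 100 UMIs were at least 2-fold higher in the members of both libraries (0.68%) and 373 at least 2-fold lower (8.18%), with median log2 ratios of -0.21 in RC and -0.28 in SAA. The rule used this contrast, and nothing is read from these counts. Among the named genes above the fold were S100a6, Mmp9, the stefin genes BC100530 and Gm5483, Tcp11l2 (4.66 and 4.09) and AA467197 (2.76 and 2.71). Lowest were the replication-dependent histones Hist1h2ap (0.00956 and 0.0283) and Hist1h2ae (0.0352 and 0.00821), beside Top2a of the rule (0.0191 and 0.0291). In the G2 and M phase list, 38 of 48 genes were at least 2-fold lower in both libraries, and in the S phase list 8 of 37. Pcna, the DNA polymerase clamp, was at 0.90 times the cycling level in RC and 0.42 times in SAA, and Cdca7, a chromatin factor of S phase, at 1.40 and 0.72 times.

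Between SAA and RC, 35 of 379 genes with at least 100 UMIs in members of both libraries together were at least 2-fold higher in SAA (9.23%) and 8 at least 2-fold lower (2.11%), and the median log2 ratio was 0.12. Of the 35, 6 belonged to the list of MHC class I presentation, 4 to the mature neutrophil list, 3 to the schlafen family and 1 to the interferon-gamma-inducible GTPases. The rule that chose the members used none of these 35 genes. Over the 2175 genes with at least 20 UMIs, the minimum for list genes, 13.7% were at least 2-fold higher and 5.29% at least 2-fold lower.

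**Figure D3:**
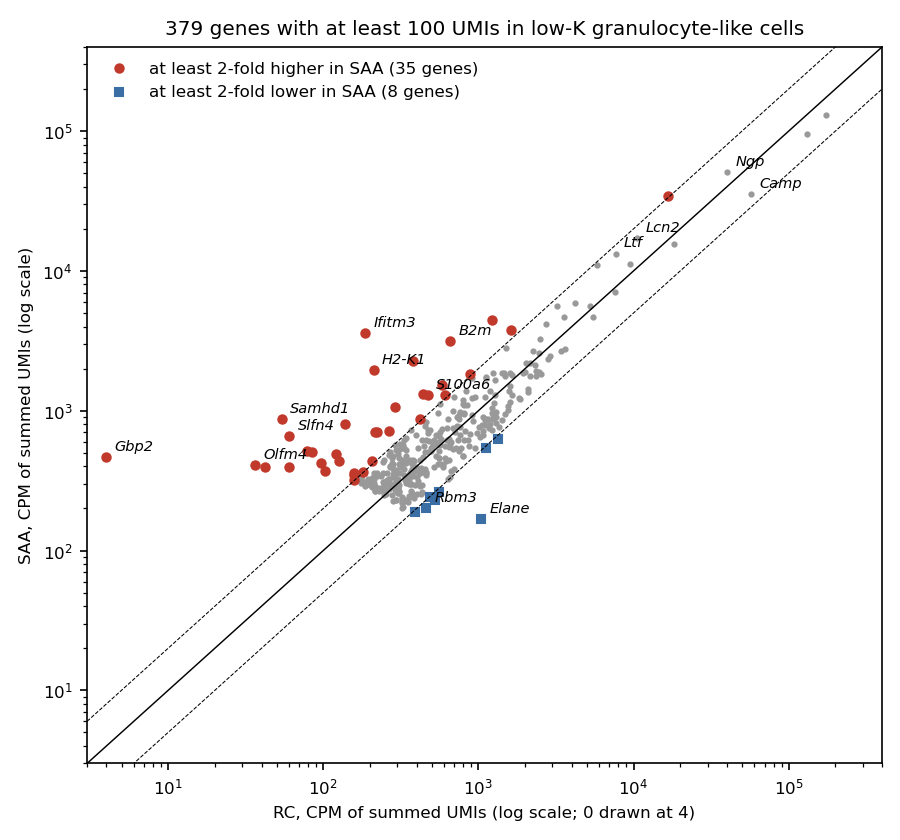
Levels of the 379 genes with at least 100 UMIs in low-K members, RC on the horizontal and SAA on the vertical axis, in CPM on log axes, with a solid line at equal levels, dashed lines at 2-fold and a level of 0 in RC drawn at the left edge. The 35 genes at least 2-fold higher include Gbp2, Ifitm3, H2-K1 and B2m, and the 8 at least 2-fold lower include Elane and Rbm3.

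Gbp2, a guanylate-binding GTPase that interferon-gamma induces, had 0 UMIs in every RC member and a lowest, median and highest count of 0, 1 and 17 UMIs in SAA members. It was found in 64.3% of SAA members, in 54.2% after thinning, and in 0 of 36 RC members, which allows a share of cells with a UMI of up to 8.33% (3 of 36 cells). In SAA, 17.1% of T-like and 94.5% of monocyte-like cells also held a UMI, and the share of free RNA in the members was not tested. Its 112 UMIs made it at least 25.9-fold higher in SAA, against a floor of 3 UMIs for the RC total. Gbp7 had 2 and 96 UMIs, a ratio of 33.3 (8.98 to 279), and Ifi47, an immunity-related GTPase, 3 and 47, a ratio of 10.9. The whole list of interferon-gamma-inducible GTPases summed to 10 UMIs in RC members and 515 in SAA members, a ratio of 35.8 (19.3 to 75.03). These were 60.2 and 2154 CPM, and cycling cells also differed, with 45.7 CPM in RC and 1397 CPM in SAA. Each of the 9 genes that reached 20 UMIs had at most 3 UMIs in RC and so was counted through SAA alone. That 9 of 9 were at least 2-fold higher, with a median log2 ratio of 4.68 and genes at 0 set at their bound, therefore followed from the minimum and supports nothing. It summed to 17 and 2047 CPM in RC and SAA members with a K of 0. In 12 of the 14 list genes with a promoter window the response element was present (85.7%), as in Gbp2 above. The gamma-activated site, TTCNNNGAA, was present in 7 of the 14, against 9.55% of all genes. Among the 35 genes at least 2-fold higher in SAA, 30 had a window. Of these, 5 held the response element and 4 the gamma-activated site (16.7% and 13.3%).

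Ifitm3, a membrane protein that blocks viral entry, had a lowest, median and highest count of 0, 0.5 and 4 UMIs in RC members and 0, 15 and 36 UMIs in SAA members. The ratio was 19.2 (13.5 to 28.5), and 19.5 in cycling cells. Samhd1, a dNTP hydrolase that restricts viruses, had 0, 0 and 1 UMIs in RC and 0, 4 and 11 UMIs in SAA, a ratio of 16.0 (cycling cells 14.9). Most SAA members lay above every RC member for Ifitm3, and the ranges overlapped at their lower end.

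Isg15 had 1 UMI in RC and 60 in SAA, a ratio of 41.7 whose interval of 7.20 to 1673 reflects the single RC count. Oasl2, an oligoadenylate synthetase-like protein, had 0 and 65 UMIs and was at least 15.0-fold higher. The whole type I interferon list summed to 76 UMIs in RC and 877 in SAA, a ratio of 8.01 (6.33 to 10.3). Of its 20 genes with at least 20 UMIs, 17 were at least 2-fold higher in SAA and 0 lower, with a median log2 ratio of 2.88, but 16 of the 20 had at most 3 UMIs in RC and were counted through SAA alone, so this count is no support. The 3 that were not, Ifi27, Dtx3l and Stat2, had ratios of 1.58, 1.62 and 1.59. Of the 30 list genes with a window, 15 held the response element.

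MHC class I genes, which display peptides to CD8 T cells, were higher in SAA. B2m had a lowest, median and highest count of 0, 2.5 and 8 UMIs in RC members and 2, 13 and 34 UMIs in SAA members. Levels were 657 CPM (interval 539 to 792) for RC and 3150 CPM (2929 to 3383) for SAA, a ratio of 4.80 (3.92 to 5.92), and 4.95 in cycling cells. H2-K1, a heavy chain, had 0, 1 and 3 UMIs in RC and 0, 7 and 24 UMIs in SAA, a ratio of 9.31 (6.60 to 13.5) against 8.32 in cycling cells. H2-D1, the other classical heavy chain counted here, had 0, 1.5 and 8 UMIs in RC and 1, 9 and 23 UMIs in SAA, a ratio of 6.02 against 4.90. Heavy chain genes are near-identical to each other and differ between the 2 parental strains, so their split, and the level counted against a single reference, is uncertain. The split between near-identical genes does not apply to B2m.

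Genes of peptide supply were higher as well. Tap1, a subunit of the peptide transporter, had 3 and 63 UMIs, a ratio of 14.6, and the proteasome genes Psmb8, Psmb9, Psme1 and Psme2 had ratios of 10.8, 6.00, 4.06 and 4.38. The whole list summed to 343 UMIs in RC and 2732 in SAA, a ratio of 5.53 (4.94 to 6.21). Of its 18 genes with at least 20 UMIs, 17 were at least 2-fold higher (background 13.7%), with a median log2 ratio of 2.57. Of these, 5 had at most 3 UMIs in RC, and Pdia3, a chaperone of the endoplasmic reticulum, had a ratio of 1.07. No gene of the class II list reached 20 UMIs.

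**Figure D4:**
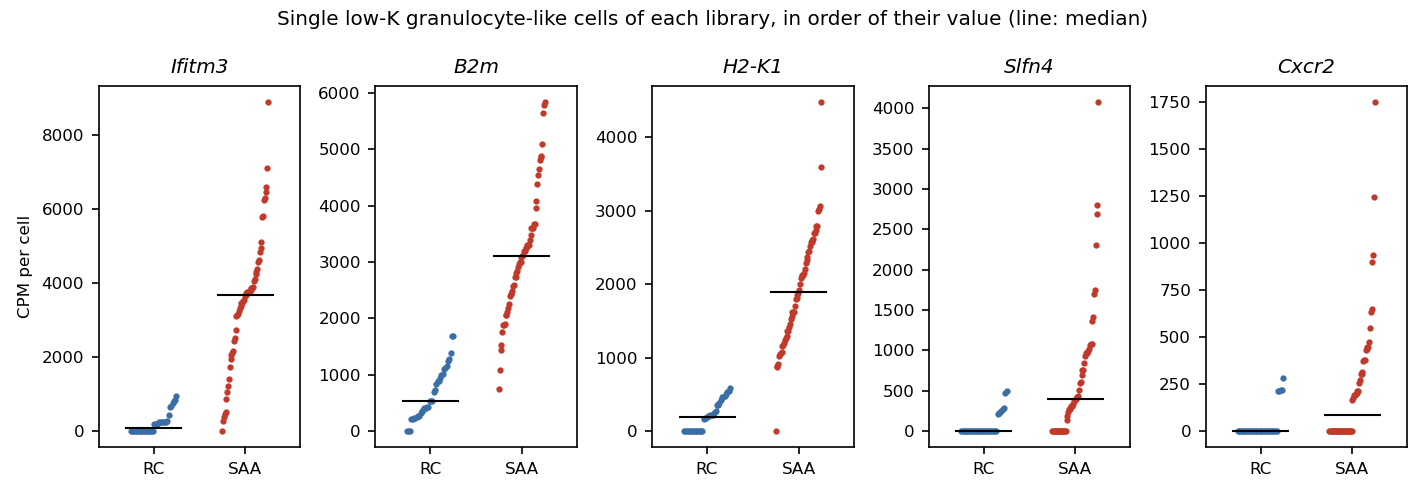
Levels of Ifitm3, B2m, H2-K1, Slfn4 and Cxcr2 in CPM per cell, 1 point for each low-K member of RC (36 cells) and SAA (56 cells) in order of value, with horizontal lines at the medians. For each gene the SAA members reach higher than any RC member, and the lower SAA members overlap the RC range.

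Genes of interferon signalling were higher in part. Among 8 measured genes of interferon receptors and JAK-STAT signalling, 5 were at least 2-fold higher (background 13.7%), with a median log2 ratio of 1.22, and Ifngr1, a chain of the interferon-gamma receptor, was not (10 and 11 UMIs). Of the 8 genes, 2 had at most 3 UMIs in RC and were counted through SAA alone. Socs1, a feedback inhibitor of this pathway, had 0 UMIs in RC and 40 in SAA. Of 5 genes of the G-CSF and STAT3 list, 4 were at least 2-fold higher, among them Pim1, a survival kinase (2 and 76 UMIs, ratio 26.4), and Lrg1, a granule glycoprotein (37 and 169 UMIs, ratio 3.17, cycling cells 1.62). Pim1 was counted through SAA alone. Slfn1 and Slfn2 had ratios of 9.42 and 3.26. Cd47, the signal by which phagocytes spare a cell, was 1.75 times as high in SAA.

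**Figure D5:**
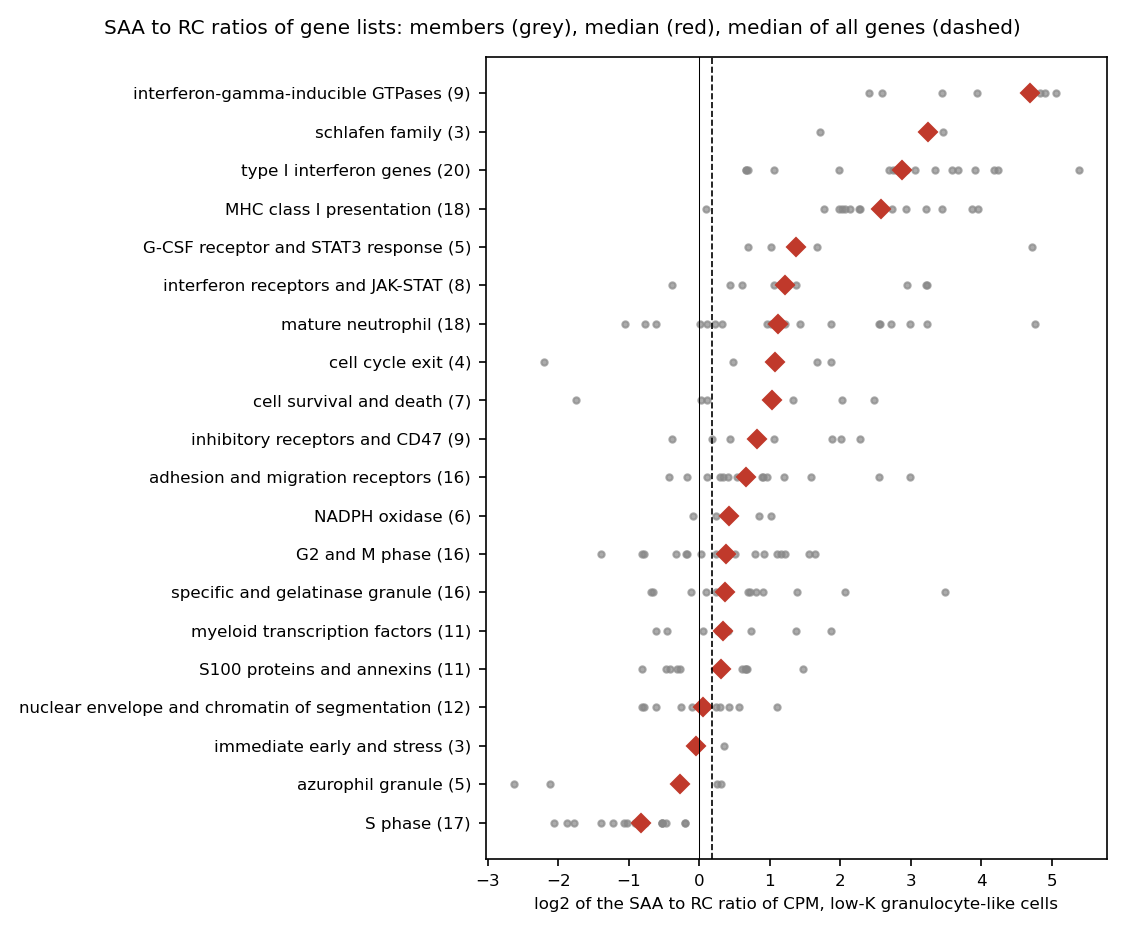
Log2 ratio of SAA to RC in low-K members for the measured genes of each list (grey points, their number in brackets), with the list median as a red diamond and the median over all genes as a dashed line at 0.18. Interferon-gamma-inducible GTPases (4.68), type I interferon genes (2.88) and MHC class I presentation (2.57) lie far above that line, and S phase genes (-0.83) below it, but the 9 GTPase genes and 16 of the 20 type I genes were counted through SAA alone.

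Genes that were lower in SAA were fewer. Besides Elane, they included Rbm3, a cold-inducible RNA-binding protein (ratio 0.439, cycling cells 0.431), Anp32b, a histone chaperone (0.439), and the ribosomal protein genes Rpl10, Rps3a1 and Rps4x (0.476, 0.470 and 0.482). Of 80 ribosomal protein genes, 3 were at least 2-fold lower and 0 higher, with a median log2 ratio of -0.35. In the S phase list, 7 of 17 measured genes were at least 2-fold lower in SAA, and the list's median log2 ratio was -0.83. Over all 2175 genes with at least 20 UMIs, 5.29% were at least 2-fold lower and 13.7% at least 2-fold higher. Mcm6, a subunit of the replicative helicase, had 29 and 10 UMIs, and Gmnn, the licensing inhibitor geminin, 19 and 8.

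Since S phase transcripts differed between the libraries, the main results were also computed for members with a K of 0 alone, 14 in RC and 19 in SAA, an alternative chosen after seeing the data. The SAA to RC log2 ratio was 3.70 for Ifitm3, 2.04 for B2m, 3.26 for H2-K1 and 3.00 for H2-D1. It was 0.72 for Ltf, 0.55 for Lcn2 and -0.77 for Camp. Within the common depth window the values were 4.58 for Ifitm3, 2.19 for B2m, 2.95 for H2-K1, 1.12 for Ltf and -0.74 for Camp. These directions were thus the same among members with the fewest S phase transcripts, although not free of them, and in the depth window. In members with a K of 0, list medians were 3.14 for the interferon-gamma-inducible GTPases, 1.80 for the type I interferon genes and 2.15 for the schlafen family. The cell cycle exit list stood at 2.02, the G-CSF and STAT3 list at 1.98 and MHC class I presentation at 2.82. Fewer UMIs were summed there, and genes at 0 in RC were set at 3 UMIs of a smaller total. These medians are therefore not on the same scale as those over all members. The summed levels at a K of 0 were 17 CPM in RC and 2047 CPM in SAA for the GTPases. For the type I interferon genes they were 429 and 3641 CPM.

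Along K in SAA, type I interferon genes summed to 3641 CPM in members with a K of 0, 3682 in members with a K of 1 to 4, and 2412 and 2521 in the cycling strata of 5 to 9 and of 10 or more. In RC the 4 sums were 429, 473, 359 and 395 CPM. MHC class I genes in SAA varied little along K, with 10132, 12047, 11168 and 11065 CPM, and in RC with 1733, 2247, 2146 and 2147 CPM. Every stratum of SAA thus lay above every stratum of RC for both lists.

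Markers of other cell types were sparse in the members. The 10 monocyte markers summed to 4 UMIs in RC and 52 in SAA (24.1 and 218 CPM), with a median of 0 and 0.5 and a highest sum of 1 and 7 per cell. At least 1 of these UMIs lay in 4 of 36 RC and 28 of 56 SAA members. In each library 2 markers were detected, Mpeg1 and Fn1 in RC and Mpeg1 and Ccr2 in SAA. Ccr2 gave 1 of the 52 UMIs in SAA and Mpeg1 the rest. Csf1r, F13a1, Ms4a6c, Ly86, Cx3cr1, Klf4 and Irf8 were at 0 in both. Cycling cells held 30.2 and 256 CPM of the 10 markers. Macrophage markers summed to 14 and 2 UMIs and T cell markers to 7 and 7, the latter from 1 of 9 genes, with Cd3e, Trac and Lck at 0. No member was called a doublet, against 1 and 7 calls in all retained cells. RNA quality did differ, since the nuclear RNA Malat1 was 2.35 times and the ribosomal RNA fragments Gm42418 and AY036118 were 2.08 and 2.63 times as high in SAA members. The summed mitochondrial transcripts were 1.59 times as high (1.50 to 1.70). The SAA to RC ratios were also computed with these genes left out, as 1 of the alternatives listed below. That changes only the totals, and the part of RNA quality in the ratios above was not tested.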

How the data were processed

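The members, the gene lists and the comparisons were chosen with earlier results of these data known. The deposited values are raw UMI counts per gene and barcode for 31053 genes, which the authors made from 5′ Chromium libraries. The submitters' processing notes name Cell Ranger 6.0.1 and mm10. Barcodes with at least 1000 genes and at most 25% mitochondrial UMIs were kept, as in the study's methods. For each library and class of cells, UMIs were added up and scaled to CPM. SAA to RC and member to cycling ratios were given exact conditional binomial intervals, CPM exact Poisson intervals and shares Clopper-Pearson intervals, all at 95% and for counting error only, and the upper limit of a share of 0 was set at 3 cells of those counted. Sums weight cells by depth. A gene was counted with at least 100 UMIs and a list gene with at least 20, past the fold at a ratio of 2 or 0.5, and a gene at 0 in 1 library was set against 3 UMIs. With 1 library of 3 pooled mice per group, no test was made.

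The genes named are those of the rule and the markers, the 10 highest and 10 lowest in SAA and the 8 highest and 8 lowest against cycling cells by the nearer interval bound, and the 3 genes of each of 24 lists with the most UMIs. Others named in the text, such as the stefin genes, Tap1, Socs1 and Mcm6, were picked after their values were seen. Cells were thinned to 3000 UMIs with seed 42 for comparisons of shares. Doublets were called with Scrublet in scanpy 1.11.5 and kept. Promoter windows came from RefSeq tables of GRCm38.p6 and were searched for 3 motifs on both strands. These were TTGCNNAA, GAAA and GAAA with any 2 bases between them, and the gamma-activated site TTCNNNGAA. Alternatives changed the cell filter, the limit on K, the UMI minimum, the scaling (TMM of edgeR 4.0.16 under R 4.3.3, and a median of ratios), the weighting of cells and the depth compared. Scripts used Python 3.11.15, numpy 2.4.6, scipy 1.17.1 and matplotlib 3.10.9, and the code was tested on simulated data. Human data and flow cytometry were not analysed here. The values of 1 gene of the lists are not reported here.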

Additional observations from a re-analysis of the deposited data

Results flagged for a closer look

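Olfm4, which encodes olfactomedin 4, a specific granule protein carried by a subset of neutrophils, stood in opposite directions in the libraries. Its level in low-K members was 0.228 times that of cycling cells in RC and 2.47 times in SAA. The difference was not tested. It rested on few cells, since 6 UMIs lay in 1 RC member and 97 UMIs in 4 SAA members, of which 1 held 48. The SAA to RC log2 ratio in members was 3.49, and it was 1.45 without a cell filter and 0.90 with a K limit of 10.

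Barcodes outside the cell filter also met the marker rule, 24 in RC and 32 in SAA, with median counts of 787 and 757 genes. These barcodes entered no comparison except the alternative without a cell filter. Their levels of Retnlg were 160 and 1906 CPM, against 72.3 and 188 CPM in the members, and their Slfn4 at 124 and 1363 CPM. Ltf was at 8623 and 13290 CPM, near the members' level.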

How the results depend on the processing

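No paired analysis was possible because each group is 1 library. For the count of genes at least 2-fold higher in SAA (35), the values were 10 with at least 1500 genes and at most 10% mitochondrial UMIs, 71 with a K limit of 10, 100 with the rule applied to thinned cells, 18 in the common depth window, 94 and 19 with minimums of 50 and 200 UMIs, and 14 in members with a K of 0. For genes at least 2-fold lower (8), they were 2 with a K limit of 3, 5 with cells weighted equally, 14 in the window, 18 and 3 with the UMI minimums, and 1 with a K of 0. For genes higher in members than in cycling cells of both libraries (31), they were 51 and 13 with K limits of 3 and 10, 6 on thinned cells, 63 with median-of-ratios scaling, 0 in the window, and 65 and 14 with the UMI minimums. For genes lower in members (373), they were 591 and 171 with K limits of 3 and 10, 122 on thinned cells, 34 in the window, and 617 and 208 with the UMI minimums. Lists with a median of at least 2-fold (9 of 24) were 5 when genes with 1 UMI or more were counted. The members' share of granulocyte-like cells in RC (13.5%) was 20.3% without a cell filter, 4.48% with the stricter one, 8.61% and 27.7% with K limits of 3 and 10, and 26.4% on thinned cells. In SAA (14.7%) it was 20.9%, 3.55%, 10.5%, 27.2% and 28.3%. The filter and limits change which cells enter, and the cause was not tested otherwise.

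The sign of values past 2-fold turned rarely. The cell cycle exit list had a median log2 SAA to RC ratio of -0.16 with a K limit of 10 and of -0.16 on thinned cells, and Elane had 0.084 on thinned cells. Among log2 ratios to cycling cells, Elane was 0.11 and Mpo 0.12 in SAA on thinned cells, Mpo 5.42 and Prtn3 2.70 in RC in the window, and under the stricter filter Padi4 was -0.58, BC100530 -1.12 and Slbp 0.23 in SAA and Tcp11l2 -0.38 and Pim1 0.52 in RC. Pim1 in RC was 0.25 with a K limit of 10. For SAA to RC ratios of 51 single genes, 603 values under an alternative lay within 1.5 times the original, 17 lay farther off and 1 turned. For list medians the counts were 303, 33 and 2, and for ratios of members to cycling cells 1857, 221 and 10. A turn was counted only where the original was at least 2-fold. That held for 20 of the 51 genes, 9 of 22 list medians and 58 of 181 ratios to cycling cells. Smaller values that changed sign, such as Ltf against cycling cells of RC in the window, are not among the turned ones. The number of members, 36 and 56, and the single RC or SAA library limit all values, and genes under 20 UMIs were not compared.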

Other observations

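Genes of granulocyte death, adhesion and nuclear shape were also measured in the low-K members. Of 7 measured genes of the survival and death list, 4 were at least 2-fold higher and 1 at least 2-fold lower in SAA, and the list's median log2 ratio was 1.03. Of the 7 genes, 1 had at most 3 UMIs in RC and was counted through SAA alone. Of 16 adhesion and migration genes, 4 were at least 2-fold higher and 0 lower, with a median of 0.66, and of 9 genes of inhibitory receptors and CD47, 4 were higher and 0 lower, with a median of 0.81. Over all 2175 genes with at least 20 UMIs, 13.7% were at least 2-fold higher and 5.29% at least 2-fold lower. The genes of nuclear segmentation lay near even, with 1 of 12 higher, 0 lower and a median of 0.06.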
